A study of Mus musculus with 6 samples.

Results

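The Fc gamma receptors of mouse tumor-associated macrophages (TAMs) were examined as 5 genes. These were the activating receptors Fcgr1, Fcgr3 and Fcgr4, the inhibitory receptor Fcgr2b, and Fcer1g, which encodes the signaling chain that the activating receptors share. They were found by matching Ensembl mouse gene IDs to symbols in a table of 56980 genes, and all 5 were present. Values were TPM (transcript abundances), scaled for transcript length and library total, so levels can be set side by side between genes. All 5 also passed the filter on low values, which asked for 1 TPM or more in 3 or more libraries and left 14776 genes for testing.

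ID8 cells, a mouse epithelial ovarian cancer line, were injected into the peritoneal cavity of female mice. TAMs were sorted from the tumors 2 months later as live CD45+CD11b+Ly6G-F4/80+ cells, and their poly(A) RNA was sequenced. The 3 WT libraries came from C57BL/6 mice and the 3 C5aR-/- libraries from mice with a C5aR knockout on the C57BL/6 background, all 6 to 8 weeks old when obtained. Both groups carried the same ID8 cells, and the labels give no other treatment. The knockout was present in every host cell and not in macrophages alone. C5aR is a receptor for the complement fragment C5a, and the comparison asked how its loss altered TAMs. Nothing in the labels ties each library to a separate animal, so p-values measure the spread between these libraries, part of which may be technical. The legends of the study count more mice per group than the libraries analysed here.

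Fc gamma receptors bind the constant part of IgG and let macrophages respond to antibody-coated cells. FcγRI, FcγRIII and FcγRIV, the products of Fcgr1, Fcgr3 and Fcgr4, signal through the ITAM of the FcR gamma chain encoded by Fcer1g, by way of Src family kinases and Syk, and trigger phagocytosis and cytokine release. FcγRIIB, the product of Fcgr2b, carries an ITIM that recruits the phosphatase SHIP-1 and restrains the same response, so macrophage biology is often described by the balance between both kinds. Interferon-γ is known to raise Fcgr1 and Fcgr4, IL-4 to raise Fcgr2b, and C5a has been described as a signal that shifts the balance in macrophages of inflamed tissue.

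In GRCm38, 4 of the 5 genes lie within 276 kb of chromosome 1. Fcgr2b (ENSMUSG00000026656) occupies chr1:170958617-170976547 on the minus strand, Fcgr4 (ENSMUSG00000059089) chr1:171018920-171029761 on the plus strand, Fcgr3 (ENSMUSG00000059498) chr1:171051174-171064935 on the minus strand and Fcer1g (ENSMUSG00000058715) chr1:171229572-171234365 on the minus strand. Fcgr1 (ENSMUSG00000015947) lies apart, at chr3:96282909-96293969 on the minus strand. The 250 bases before the RefSeq start were searched on both strands for the interferon-γ activated site TTCNNNGAA (GAS), the interferon-stimulated response element (ISRE, read here as GAAA, any 2 bases and GAAA) and the PU.1 core GAGGAA. PU.1 is a transcription factor of macrophages and of other blood cells. The Fcgr1 and Fcgr4 promoters are shown because these genes share a pattern across libraries that is described later, and the Fcgr2b promoter because it is the inhibitory counterpart. The sequences are from RefSeq (GRCm38.p6), run 5′ to 3′ along the gene, and have motif matches in capitals.
Fcgr1 promoter, chr3:96293970-96294219, minus strand: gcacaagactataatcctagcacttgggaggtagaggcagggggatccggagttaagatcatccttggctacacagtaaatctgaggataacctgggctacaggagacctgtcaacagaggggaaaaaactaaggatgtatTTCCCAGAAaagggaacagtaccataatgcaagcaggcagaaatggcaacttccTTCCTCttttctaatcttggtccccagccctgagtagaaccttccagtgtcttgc
Fcgr4 promoter, chr1:171018676-171018925, plus strand: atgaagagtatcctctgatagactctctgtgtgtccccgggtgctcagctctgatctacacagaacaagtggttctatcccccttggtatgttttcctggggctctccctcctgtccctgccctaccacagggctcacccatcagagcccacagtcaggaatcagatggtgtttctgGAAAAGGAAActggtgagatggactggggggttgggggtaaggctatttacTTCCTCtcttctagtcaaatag
Fcgr2b promoter, chr1:170976072-170976321, minus strand: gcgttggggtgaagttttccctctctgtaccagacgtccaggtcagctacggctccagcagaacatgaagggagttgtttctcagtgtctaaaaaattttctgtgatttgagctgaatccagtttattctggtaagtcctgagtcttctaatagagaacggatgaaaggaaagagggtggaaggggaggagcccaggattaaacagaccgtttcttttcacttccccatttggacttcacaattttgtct

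The Fcgr1 promoter held a GAS, TTCCCAGAA, from 109 to 101 bases before the start, and a PU.1 core written as TTCCTC on the strand shown, from 55 to 50 bases before it. The Fcgr4 promoter held an ISRE, GAAAAGGAAA, from 73 to 64 bases before the start, and the same TTCCTC from 22 to 17 bases before it. Both RefSeq windows of Fcgr3, chr1:171059404-171059653 and chr1:171059395-171059644, overlap and lie inside the GENCODE span of the gene. The only match in them was the same PU.1 core. The windows of Fcgr2b and Fcer1g held none of these letters. That of Fcgr2b also lies inside the GENCODE span of its gene, so the bases before its GENCODE start were not searched. Of 32851 mouse promoter windows of 250 bases, 7.02% held a GAS, 2.98% an ISRE and 23.3% a PU.1 core, and 9.66% held a GAS or an ISRE. A match describes the letters and does not show that a factor binds there.

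All 5 genes had a higher mean TPM in C5aR-/- TAMs than in WT TAMs, and none passed either threshold of the comparison (2-fold with an adjusted or with an unadjusted p under 0.05). The differences in log2(TPM + 1) lay between 0.47 and 0.85, with a median of 0.75. Over all 14776 genes the median was -0.05, and 6570 of them had a positive difference. Where limma required 2-fold or more and an adjusted p under 0.05, it called 0 of the 5 members and 0% of all genes. Where it required 2-fold or more and an unadjusted p under 0.05, it again called 0 of the 5, against 4.96% of all genes. These were 733 genes, 314 (2.13%) with higher and 419 (2.84%) with lower values in the C5aR-/- group. All 5 differences were below 2-fold. In bulk RNA, fewer cells of a type and less RNA per cell cannot be told apart, and the same holds for more cells and more RNA.

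**Figure D1:**
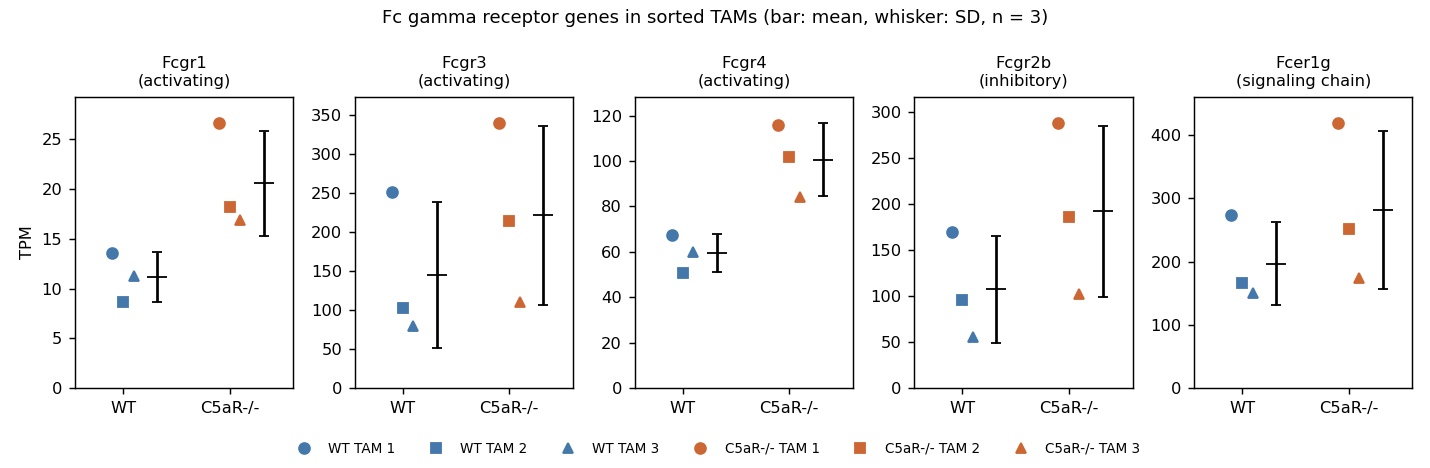
TPM of the 5 Fc gamma receptor genes in each library, with the WT group left and the C5aR-/- group right in every panel; symbols mark the library number, and the bar and whisker give the mean and SD of 3 libraries. The groups were apart for Fcgr1, where the highest WT value was 13.6 and the lowest C5aR-/- value 16.9, and for Fcgr4, where they were 67.6 and 84.0, and they overlapped for the other genes.

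Among the activating receptors, Fcgr4 had the difference with the narrowest error. FcγRIV binds IgG2a and IgG2b with intermediate affinity. Fcgr4 measured 67.6, 50.7 and 59.9 TPM in WT and 116, 102 and 84.0 TPM in C5aR-/- libraries. The groups did not overlap, and the library numbered 1 was the highest in each. The means were 59.4 ± 8.44 in WT and 101 ± 16.1 in C5aR-/- TAMs (SD, n = 3). The log2 difference of 0.75 had a standard error (SE) of 0.17 and a 95% interval from 0.34 to 1.16, a 1.68-fold higher level. The limma test gave an unadjusted p of 0.00386 and an adjusted p of 0.155. The two-sided exact permutation test gave p = 0.1, the smallest that 3 libraries against 3 allow.

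Fcgr1 encodes the high-affinity IgG receptor. It measured 13.6, 8.60 and 11.3 TPM in WT and 26.6, 18.2 and 16.9 TPM in C5aR-/- libraries, so the groups were again apart. Its means were 11.2 ± 2.52 and 20.6 ± 5.25 (SD, n = 3). The log2 difference was 0.82 (SE 0.24) with a 95% interval from 0.24 to 1.40, which is 1.76-fold, with an unadjusted p of 0.0131 and an adjusted p of 0.225 from limma. The exact permutation test again gave its smallest p of 0.1. Thus for 2 of the 5 genes the groups did not overlap with the higher values in C5aR-/- TAMs, as was the case for 8.84% of all genes. The same 2 genes had an unadjusted p under 0.05 at any fold, against 14.4% of all genes in either direction, 6.06% with higher and 8.37% with lower values in C5aR-/- TAMs. With 5 genes, of which 4 are neighbors, these shares are given as a description.

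Fcgr3, which encodes the low-affinity activating receptor and was the most abundant of the ligand-binding chains, varied far more within each group. It measured 252, 103 and 80.2 TPM in WT and 340, 215 and 110 TPM in C5aR-/- libraries. WT TAM 1 exceeded 2 of the 3 C5aR-/- libraries, and the groups overlapped. The coefficient of variation was 64.4% in WT and 51.9% in C5aR-/- TAMs, against 14.2% and 16.0% for Fcgr4 and 22.5% and 25.5% for Fcgr1. The log2 difference of Fcgr3 was 0.65 (SE 0.54), with a 95% interval from -0.64 to 1.93 and an adjusted p of 0.626 from limma, so a difference in either direction lies within its interval.

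The inhibitory receptor Fcgr2b followed the same course as Fcgr3. Its TPM was 170, 95.6 and 56.1 in WT TAMs and 288, 186 and 102 in C5aR-/- TAMs. Library 1 was the highest and library 3 the lowest of each group, and the groups overlapped. Means were 107 ± 58.1 and 192 ± 93.0 (SD, n = 3). The log2 difference of 0.85 was the largest of the 5 and had an SE of 0.50, with a 95% interval from -0.33 to 2.04 and an adjusted p of 0.479 from limma. The signaling chain Fcer1g was the most abundant of the 5, at 273, 167 and 151 TPM in WT and 419, 251 and 174 TPM in C5aR-/- libraries. These groups overlapped too, since C5aR-/- TAM 2 and 3 both lay below WT TAM 1. The log2 difference of Fcer1g was 0.47 (SE 0.36), with a 95% interval from -0.40 to 1.34 and an adjusted p of 0.600 from limma. Exact permutation tests gave p = 0.4 for Fcgr3, 0.2 for Fcgr2b and 0.4 for Fcer1g.

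**Figure D2:**
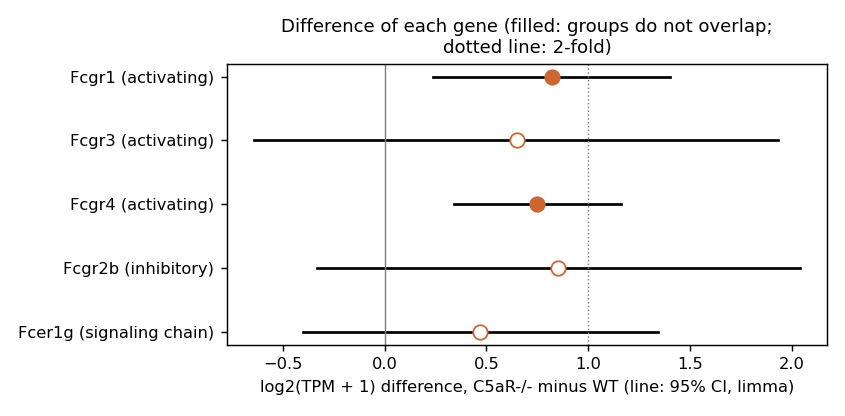
Difference in log2(TPM + 1) between C5aR-/- and WT TAMs for each of the 5 genes, as a point with its 95% interval from limma; filled points mark genes whose groups did not overlap, and the dotted line marks a 2-fold change. The points lay between 0.47 and 0.85, and the intervals of Fcgr1 and Fcgr4 alone lay above 0.

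The order of the levels was the same in both groups by mean TPM, with Fcer1g first, then Fcgr3, Fcgr2b, Fcgr4 and Fcgr1. Within each group the means of Fcer1g (197 ± 66.3 in WT and 281 ± 126 in C5aR-/- TAMs, SD, n = 3), Fcgr3 (145 ± 93.5 and 222 ± 115), Fcgr2b and Fcgr4 each differed from the next by less than the larger of the pair's SDs. Fcgr1 stood apart from Fcgr4, its nearest neighbor, by more than their SDs in both groups. Inside single libraries the order was the same in 5 of 6, and in WT TAM 3 Fcgr4 (59.9) lay above Fcgr2b (56.1). By mean TPM over the 6 libraries, Fcer1g stood at the 96.3 percentile of tested genes, Fcgr3 at 95.1, Fcgr2b at 93.8, Fcgr4 at 87.6 and Fcgr1 at 48.9.

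The balance of activating to inhibitory transcripts did not differ between the groups by more than the spread among libraries. The summed TPM of Fcgr1, Fcgr3 and Fcgr4 was 1.96, 1.70 and 2.70 times that of Fcgr2b in WT TAMs and 1.68, 1.81 and 2.06 times in C5aR-/- TAMs. The values overlapped, and the highest was in WT TAM 3. On the log2 scale the group means differed by -0.17, C5aR-/- minus WT, with a pooled SD of 0.27 between libraries. Such a ratio is taken within a library and does not depend on how libraries are scaled.

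**Figure D3:**
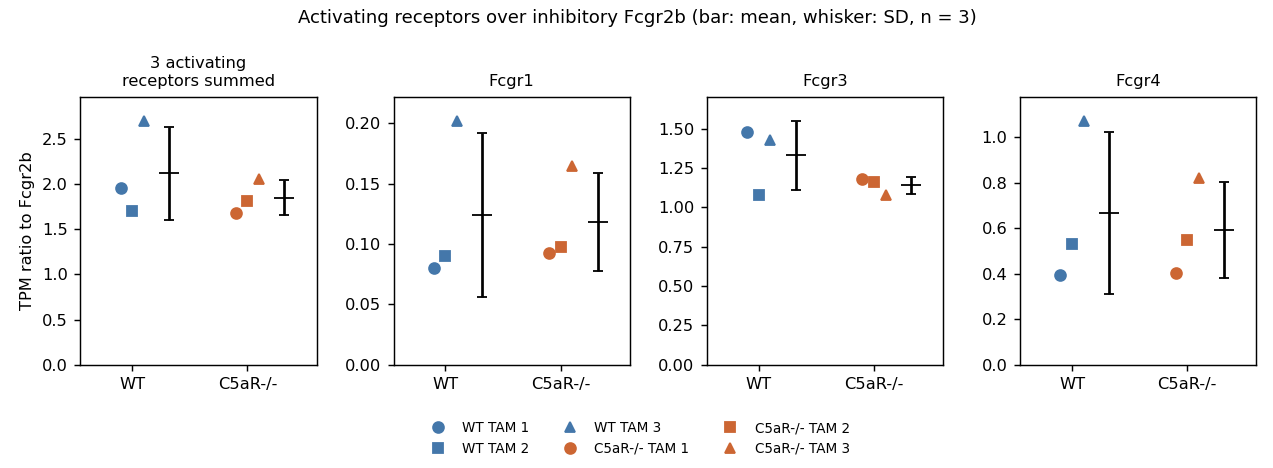
TPM ratio of the activating receptors to the inhibitory Fcgr2b in each library, for the sum of the 3 and for each alone; the bar and whisker give the mean and SD of 3 libraries. The summed ratio lay between 1.68 and 2.70 and overlapped between the groups in every panel.

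Taken singly, the activating receptors also had ratios that overlapped between the groups. Fcgr3 was 1.48, 1.08 and 1.43 times Fcgr2b in WT TAMs and 1.18, 1.16 and 1.08 times in C5aR-/- TAMs. For Fcgr4 the ratio was 0.396, 0.531 and 1.07 in WT and 0.403, 0.549 and 0.821 in C5aR-/- TAMs. For Fcgr1 it was 0.0799, 0.0900 and 0.202 in WT and 0.0923, 0.0978 and 0.165 in C5aR-/- TAMs. The log2 differences were -0.21 for Fcgr3 (pooled SD 0.19), -0.10 for Fcgr4 (pooled SD 0.63) and 0.01 for Fcgr1 (pooled SD 0.61). That of Fcgr3 was slightly larger than its pooled SD, and those of Fcgr4 and Fcgr1 were smaller. Library 3 of each group had the highest Fcgr1 and Fcgr4 relative to Fcgr2b, and these were the libraries with the lowest Fcgr2b.

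Of the summed TPM of the 4 ligand-binding receptors, Fcgr3 held 35.1% to 50% over the 6 libraries and Fcgr2b 27.0% to 37.4%. Fcgr4 held 13.4%, 19.7% and 28.9% in WT TAMs and 15.1%, 19.6% and 26.8% in C5aR-/- TAMs, so its share covered nearly the same range in both groups. Fcgr1 held 2.71% to 5.46%. The sum itself was 504, 258 and 207 TPM in WT and 771, 521 and 314 TPM in C5aR-/- TAMs. Fcer1g, whose product the 3 activating receptors need for assembly, stood at 0.818, 1.03 and 0.995 times their summed TPM in WT TAMs and at 0.868, 0.748 and 0.822 times in C5aR-/- TAMs. That ratio overlapped between the groups as well, with a log2 difference of -0.22 and a pooled SD of 0.15.

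Fcgr3 and Fcgr2b share part of their transcript sequence. Their GENCODE M21 transcripts share 94 stretches of 75 bases, which is 5.42% of the 1733 distinct stretches of Fcgr3 and 1.63% of the 5768 of Fcgr2b, and no other pair among the 5 genes shares any. A further 62 stretches of Fcgr2b, or 1.07%, also occur in transcripts of genes outside the 5. The study sequenced paired reads longer than 75 bases, so a shared stretch need not leave a read pair ambiguous. How many read pairs could come from both genes was not tested. How the deposited values divided any such reads is not given in the sources used here. The effect on the levels of Fcgr3 and Fcgr2b and on their ratio is therefore unknown.

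Fcgr3, Fcgr2b and Fcer1g, which varied widely within groups, did so along with macrophage genes. Csf1r, the receptor for the macrophage growth factor M-CSF, measured 239, 89.7 and 59.4 TPM in WT and 301, 172 and 83.7 TPM in C5aR-/- libraries. Divided by Csf1r in the same library, Fcgr3 was 1.06, 1.15 and 1.35 in WT TAMs and 1.13, 1.25 and 1.32 in C5aR-/- TAMs. These ratios spanned only 1.28-fold over the 6 libraries and differed by 0.06 on the log2 scale between the groups. Fcgr2b over Csf1r was 0.714, 1.06 and 0.944 in WT and 0.956, 1.08 and 1.22 in C5aR-/- TAMs, a log2 difference of 0.27 with overlapping groups. Fcer1g over Csf1r was 1.14, 1.86 and 2.54 in WT and 1.39, 1.45 and 2.07 in C5aR-/- TAMs, a 2.22-fold range with overlapping groups. Fcgr4 over Csf1r ran from 0.283 to 1.01 in WT and from 0.385 to 1.0 in C5aR-/- TAMs, a 3.57-fold range, and Fcgr1 over Csf1r spanned 3.55-fold. Fcgr1 and Fcgr4 thus varied less than Csf1r within each group, and their ratios to it overlapped, with log2 differences of 0.28 and 0.17. They still moved with macrophage genes inside the groups, since the Pearson r of deviations from the group means with the mean of the macrophage markers was 0.80 for Fcgr1 and 0.84 for Fcgr4, beside 0.98 for Fcgr2b and Fcer1g, over 6 libraries that share their scaling.

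**Figure D4:**
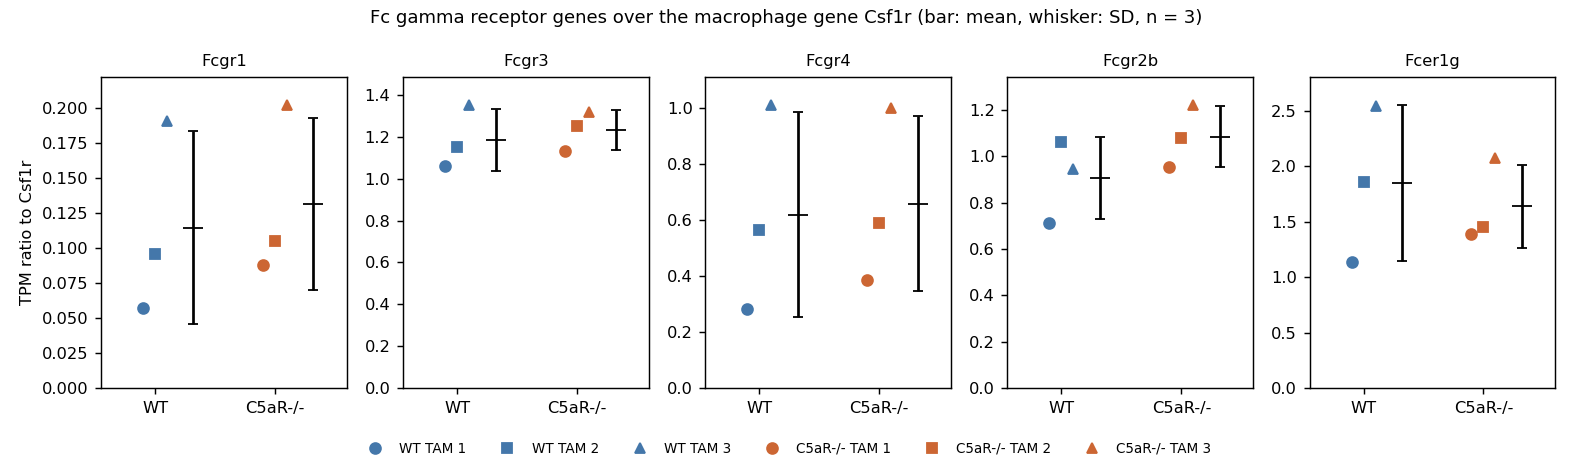
TPM ratio of each of the 5 genes to Csf1r in the same library, with the bar and whisker giving the mean and SD of 3 libraries. Fcgr3 kept a ratio between 1.06 and 1.35 in all 6 libraries, and the ratios of Fcgr1 and Fcgr4 differed by more than 3-fold between the lowest and the highest library, with both groups overlapping in every panel.

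The result depended on which macrophage gene was taken as reference. Cd68, a lysosomal glycoprotein of macrophages, measured 211, 107 and 73.5 TPM in WT and 422, 196 and 115 TPM in C5aR-/- libraries. Relative to Cd68 the log2 differences were 0.04 for Fcgr1, -0.19 for Fcgr3, -0.08 for Fcgr4, 0.02 for Fcgr2b and -0.37 for Fcer1g, and all 5 ratios overlapped between the groups. Adgre1, which encodes the F4/80 antigen used in the sort, measured 114, 45.8 and 25.4 TPM in WT and 91.1, 40.1 and 27.9 TPM in C5aR-/- libraries. Relative to Adgre1, Fcgr3 was 2.21, 2.25 and 3.16 in WT and 3.73, 5.36 and 3.94 in C5aR-/- TAMs, and Fcgr2b was 1.49, 2.09 and 2.21 in WT and 3.16, 4.63 and 3.66 in C5aR-/- TAMs. Both of these ratios were apart between the groups, with log2 differences of 0.78 and 0.99, and those of Fcgr1, Fcgr4 and Fcer1g overlapped.

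Over the whole list of 12 macrophage markers, 9 had a positive and 3 a negative difference, with a median of 0.47, and 0 passed either threshold. Their summed TPM ran from 2709 to 9407 in WT and from 2692 to 9356 in C5aR-/- TAMs, so the sums covered the same range. The marker Lyz2, named here after its values were seen, was the largest single part of this sum. It measured 5812, 2293 and 1408 TPM in WT and 4787, 2779 and 1151 TPM in C5aR-/- libraries. The mean log2(TPM + 1) of the 12 markers, which weights them equally, was 0.32 higher in the C5aR-/- group. It was 7.95, 6.76 and 6.41 in WT and 8.15, 7.38 and 6.56 in C5aR-/- TAMs, with overlapping groups. When every library was rescaled by the mean of these markers, the log2 differences became 0.43 for Fcgr4, 0.50 for Fcgr1, 0.53 for Fcgr2b, 0.33 for Fcgr3 and 0.15 for Fcer1g, while the median of all genes moved to -0.37. None of the 5 then had an unadjusted p under 0.05 in limma, the smallest being 0.479 for Fcgr2b.

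Marker transcripts of other cells that can carry Fc gamma receptors also differed between the libraries. The summed TPM of 10 neutrophil markers was 660 to 2526 in WT and 32.5 to 433 in C5aR-/- TAMs, and 7 of the 9 tested were lower past the unadjusted threshold. S100a9, a calcium-binding protein of neutrophils, measured 572, 1409 and 401 TPM in WT and 80.3, 216 and 10.7 TPM in C5aR-/- libraries. Ly6g, whose product was gated out in the sort, was at 0.62, 4.94 and 0.92 in WT and was listed at 0, 0.56 and 0 in C5aR-/- TAMs. For 9 mast cell markers the sum was 172 to 201 in WT and 70.6 to 92.8 in C5aR-/- TAMs, with 6 of the 8 tested lower and 1 higher at that threshold. The higher one was Kit, the receptor for stem cell factor, named here after its values were seen, at 28.9, 33.1 and 29.8 TPM in WT and 54.6, 68.0 and 85.4 TPM in C5aR-/- libraries. Without Kit the sum of the other 8 markers was 138 to 171 in WT and 7.41 to 15.9 in C5aR-/- TAMs. Mcpt4, a mast cell protease, measured 12.4, 12 and 22.4 TPM in WT and 0.25, 0 and 0 TPM in C5aR-/- libraries. The 5 receptor genes had their higher means in the C5aR-/- group, where these marker sums were lower. Their part in the receptor values was not tested.

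B cells, which carry Fcgr2b as their Fc gamma receptor, gave a marker sum of 40.5 to 205 in WT and 15.1 to 208 in C5aR-/- TAMs over 7 genes, of which 0 passed either threshold. Monocyte markers summed to 159 to 268 in WT and 53.2 to 297 in C5aR-/- TAMs, with 1 of 6 lower at the unadjusted threshold. NK cell markers summed to 8.16 to 24.9 in WT and 12.1 to 15.5 in C5aR-/- TAMs. In the same order, the sums were 54.8 to 55.7 and 51.9 to 98.6 for conventional dendritic cells. For endothelium they were 10.9 to 133 and 7.24 to 59.9. Of these markers 5 of 8, 6 of 7 and 4 of 7 were tested, and 0 passed either threshold. The endothelial genes Stab2 and Emcn, named after their values were seen, were too low for testing. Stab2 was at 0.02, 0 and 0.02 TPM in WT and 1.69, 3.84 and 0.89 TPM in C5aR-/- libraries. Emcn went the other way, at 0.06 to 0.09 TPM in WT and 0 in C5aR-/- libraries. The highest endothelial sum of each group was mostly Lyve1, at 126 TPM in WT TAM 1 and 42.0 TPM in C5aR-/- TAM 1. Cdh5, of the same list, lay between 0.05 and 0.21 TPM. Both genes were named after their values were seen. The 6 markers listed for the epithelial tumor summed to 1972 to 2214 TPM in WT and 1952 to 2474 TPM in C5aR-/- libraries, so both groups held transcripts of such genes. None passed a threshold with 2-fold, but the groups of Krt8 and Msln, named here after their values were seen, were apart and higher in the C5aR-/- group, as those of Fcgr1 and Fcgr4 were. Krt8 was at 465, 455 and 460 TPM in WT and 758, 624 and 743 TPM in C5aR-/- libraries, and Msln at 145, 135 and 180 TPM and at 268, 284 and 288 TPM. Epcam, another of the 6 and likewise named after its values were seen, lay between 2.09 and 6.33 TPM. Which cells gave the transcripts of the 6 markers was not tested, nor was the part of such cells in the receptor values. No marker was listed at 0 in all 6 libraries. C5ar1, the knocked-out gene, measured 86.5, 37.3 and 16.2 TPM in WT and 0.38, 0.11 and 0.05 TPM in C5aR-/- libraries, which fits the labels, with a log2 difference of -5.04 (SE 0.56) and an adjusted p of 0.0666 from limma.

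The genes downstream of the activating receptors were evenly divided by direction. Of 28 signaling genes, 14 had a positive and 14 a negative difference, the median was -0.02 and 0 passed either threshold. Syk, the kinase that binds the phosphorylated ITAM, measured 51.3, 44.2 and 17.6 TPM in WT and 77.9, 32.2 and 10.7 TPM in C5aR-/- libraries, a log2 difference of -0.17 (SE 0.72). Lyn, a Src family kinase, was at 62.0, 35.8 and 30.1 in WT and at 80.0, 48.9 and 28.9 in C5aR-/- TAMs. Its groups overlapped, with a log2 difference of 0.25 (SE 0.41).

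On the inhibitory side, 10 of 14 signaling genes had a positive difference, with a median of 0.21, and 0 passed either threshold. After rescaling by macrophage markers this median was -0.11, and that of the activating signaling genes was -0.34. Inpp5d, which encodes the phosphatase SHIP-1 that binds the ITIM of FcγRIIB, measured 56.6, 47.8 and 22.6 TPM in WT and 86.2, 40.3 and 27.6 TPM in C5aR-/- libraries, a log2 difference of 0.21 (SE 0.49). Ptpn6, which encodes the phosphatase SHP-1, was at 51.7, 38.4 and 45.1 in WT and at 62.4, 47.8 and 32.9 in C5aR-/- TAMs, a log2 difference of 0.04 (SE 0.25). Neither gene was separated by group.

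A further list held inhibitory receptors other than Fcgr2b, most but not all of which carry an ITIM. Of the 12 tested, 9 had a positive difference, and the median was 0.50. Past the unadjusted threshold 3 were higher, against 2.13% of all genes. None passed the adjusted threshold. Clec4a2, a C-type lectin receptor of myeloid cells, measured 7.96, 6.57 and 5.72 TPM in WT and 36.2, 23.1 and 17.5 TPM in C5aR-/- libraries, a log2 difference of 1.73 (SE 0.28) and an adjusted p of 0.0922 from limma. Siglece, a sialic acid receptor, was at 3.31, 3.23 and 4.85 in WT and at 12, 8.92 and 7.92 in C5aR-/- TAMs. Lair1, a collagen receptor, was at 16.9, 6.32 and 19.8 in WT and at 52.1, 33.9 and 31.6 in C5aR-/- TAMs. The groups of all 3 were apart, with log2 differences of 1.14 for Siglece and 1.49 for Lair1 beside the 0.85 of Fcgr2b.

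Of the receptors that use the FcR gamma chain without binding IgG, 5 were tested, 3 with a positive and 2 with a negative difference and a median of 0.44, which became -0.24 under a filter of 5 TPM. Clec4n, which encodes the fungal pattern receptor Dectin-2, measured 8.84, 5.93 and 7.57 TPM in WT and 71.1, 44.2 and 22.3 TPM in C5aR-/- libraries. Its log2 difference of 2.34 (SE 0.40) had an adjusted p of 0.0948 from limma and was the only one of the 5 past the unadjusted threshold. Among 11 genes of the related DAP12 axis, 7 had a positive difference with a median of 0.25, and Trem2 and Treml4 were past the unadjusted threshold, both higher. DAP12 itself, encoded by Tyrobp, was at 472, 257 and 187 in WT and at 427, 297 and 180 in C5aR-/- TAMs, a log2 difference of 0.00 (SE 0.42). Trem2, a lipid receptor that signals through DAP12, was at 69.1, 38.2 and 21.4 in WT and at 189, 104 and 54.5 in C5aR-/- TAMs, with overlapping groups. Treml4 was at 1.47, 2.27 and 3.76 in WT and at 11.7, 11.2 and 8.43 in C5aR-/- TAMs, and its groups were apart.

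**Figure D5:**
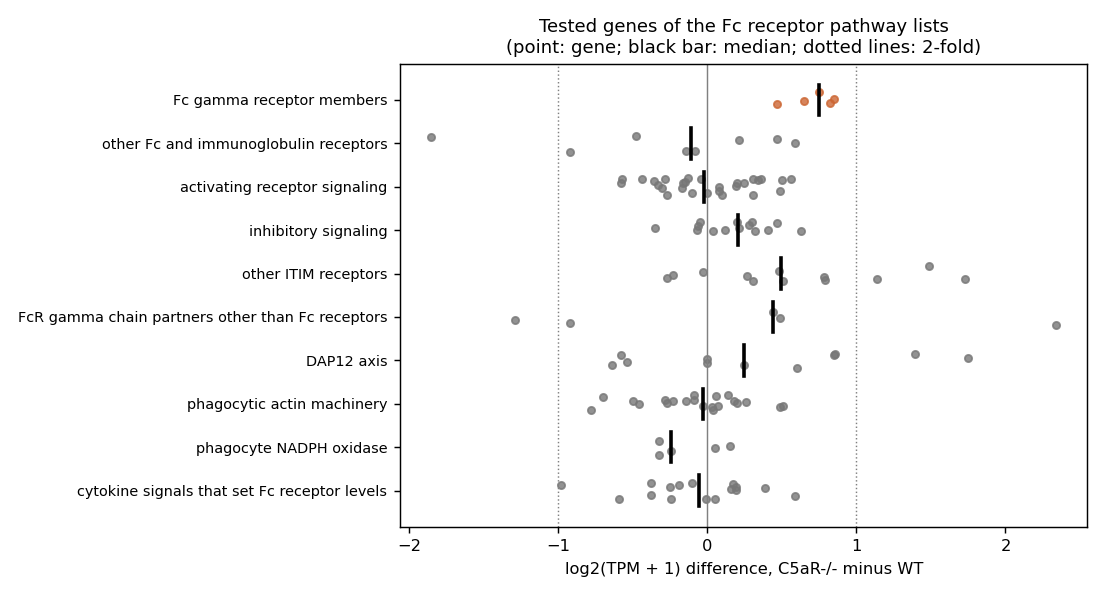
Differences in log2(TPM + 1) between C5aR-/- and WT TAMs for the tested genes of the Fc receptor pathway lists, with 1 point a gene, a black bar at the median of each list and dotted lines at a 2-fold change. The 5 Fc gamma receptor genes lay between 0.47 and 0.85 with a median of 0.75, and the medians of the other lists lay between -0.24 and 0.50.

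Receptors for other antibody classes and relatives of the Fc gamma receptors gave 3 positive and 5 negative differences among 8 tested of 13, with a median of -0.11. Fcgrt, which encodes the neonatal Fc receptor that recycles IgG, measured 107, 65.9 and 50.5 TPM in WT and 138, 79.5 and 50.9 TPM in C5aR-/- libraries. Fcer1a, the IgE-binding chain that pairs with the product of Fcer1g on mast cells and basophils, was at 2.94, 1.95 and 3.66 in WT and at 0.15, 0 and 0 in C5aR-/- TAMs. Its log2 difference of -1.85 (SE 0.26, adjusted p = 0.0666 from limma) was the only one of this list past the unadjusted threshold. Fcer1a is also 1 of the 9 mast cell markers given above, of which 6 of the 8 tested were lower and Kit was higher.

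For 21 genes of the phagocytic actin machinery 10 differences were positive and 11 negative, with a median of -0.03. For the 5 subunits of the phagocyte NADPH oxidase the median was -0.24, with 2 positive and 3 negative. Among 16 genes of the cytokine pathways that set Fc receptor levels, 7 were positive and 9 negative, with a median of -0.05. In these 3 lists 0 genes passed either threshold. Over all pathway lists together, 65 of 120 tested genes had a positive difference with a median of 0.05, and 7 of the 120 passed the unadjusted threshold with 6 of them higher, beside the 4.96% of all genes.

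The genes whose levels ran most alike over the 6 libraries differed among the receptors. Likeness was the Pearson r of log2(TPM + 1) over 6 libraries, taken among 9192 genes with a mean TPM of at least 10, and is a description, since all genes share the same 6 libraries and their scaling. For Fcgr3 the top genes were Kctd12 and Tbxas1 (r = 0.995 for both) and Csf1r (0.994). For Fcer1g they were the phagocytic receptor Mertk (0.993), Tmem189 (0.993) and Cd68 (0.991). Of these 6 genes, Csf1r, Mertk and Cd68 are on the list of macrophage markers.

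For Fcgr2b the top genes were Pepd (r = 0.995), Mrc1 (0.989) and Tgfb1 (0.984). Mrc1, which encodes the mannose receptor CD206, measured 30.3, 14.9 and 3.34 TPM in WT and 97.9, 33.2 and 12.3 TPM in C5aR-/- libraries. For Fcgr4 they were Iffo2 (0.996), Pla2g7 (0.992) and Ear2 (0.986). Pla2g7, a secreted phospholipase, was at 39.5, 20.1 and 23.3 in WT and at 145, 121 and 65.3 in C5aR-/- TAMs, so that, like Fcgr4, its groups were apart. Ear2, an eosinophil-associated ribonuclease, was at 3.46, 1.38 and 1.89 in WT and at 35.4, 24.6 and 14.6 in C5aR-/- TAMs, with a log2 difference of 2.96. For Fcgr1 they were 1700017B05Rik (0.987), Nup93 (0.986) and Ggta1 (0.984). Between 28 genes, for Fcgr1, and 74 genes, for Fcer1g, had an r of at least 0.95, so the named genes are the first of many.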

How the data were processed

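RNA of sorted TAMs was measured in 6 libraries, 3 WT and 3 C5aR-/-, grouped by the sample labels. The authors used fastp for trimming, HISAT2 for alignment and StringTie for transcript assembly, and deposited TPM per gene, scaled for length and library total. The submitters' processing notes also name RSEM, DESeq2 and the mm10 build, without versions. Which tool gave the TPM is not given in the sources used here. TPM hold no read depth, so counting error is unknown and the precision of values rests on the spread between libraries. Group means deposited in the same table were not used, and no column belonged to another series.

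Symbols and coordinates came from GENCODE M21 (GRCm38, the assembly of mm10). Of 56980 genes, 52073 had a symbol. The study tested counts with edgeR and DESeq2, which TPM do not allow, so limma 3.58.1 in R 4.3.3 was run on log2(TPM + 1) for genes at 1 TPM or more in 3 or more libraries, with eBayes trend and Benjamini-Hochberg adjustment over 14776 genes. Fold changes on that scale understate those of low genes. Thresholds were an adjusted or unadjusted p under 0.05 and 2-fold or more. Ratios are of TPM within a library. Python 3.11.15, pandas 2.3.3, numpy 2.4.6 and scipy 1.17.1 handled tables and permutation tests.

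The 5 genes, the pathway and marker lists and the alternatives were chosen with earlier results of these data known. In each pathway list Syk, Lyn, Inpp5d, Ptpn6, Tyrobp and Fcgrt were named always (1 further gene of this rule is not reported here), with up to 3 genes in each direction of smallest p past the unadjusted threshold, up to 3 defining markers of other cells, and the 3 genes most alike with each receptor. Of 131 list entries, 127 were matched. Alternatives were leaving out each library, a replicate block, eBayes without trend, other scalings (macrophage markers, median-of-ratios, quantile normalization), a pseudocount of 0.1, and a filter at 5 TPM or none.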

Additional observations from a re-analysis of the deposited data

How the results depend on the processing

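All 5 receptor genes kept a positive difference under each of 14 alternatives, and none passed the adjusted threshold in limma under any. The unadjusted threshold was passed by Fcgr2b alone. This was so without WT TAM 1 (log2 difference 1.26, unadjusted p = 0.0409 from limma) and without C5aR-/- TAM 3 (1.24, unadjusted p = 0.0397 from limma). Leaving out each library in turn gave log2 differences from 0.63 to 0.96 for Fcgr1, from 0.64 to 0.87 for Fcgr4, from 0.27 to 1.13 for Fcgr3, from 0.46 to 1.26 for Fcgr2b and from 0.13 to 0.77 for Fcer1g. The highest values of Fcgr3 and Fcgr2b came without WT TAM 1. The lowest of Fcgr3 and Fcer1g came without C5aR-/- TAM 1, and the lowest of Fcgr2b without WT TAM 3. Without the first library of both groups, an alternative chosen after seeing the data and not tested, they were 0.77 for Fcgr1, 0.74 for Fcgr4, 0.76 for Fcgr3, 0.90 for Fcgr2b and 0.39 for Fcer1g. The activating to inhibitory ratio differed by -0.32 to 0.02 on the log2 scale when single libraries were left out, and its sign turned without WT TAM 3. The labels do not say whether the replicate numbers pair the libraries. Correlations of the deviations from group means were 0.186, -0.011 and 0.272 for WT and C5aR-/- libraries of the same number, 1 to 3. Between libraries of different numbers they ran from -0.23 to 0.093, and these values do not settle whether the numbers pair. With the replicate block, the adjusted p was 0.182 for Fcgr1, 0.172 for Fcgr4, 0.231 for Fcgr3, 0.121 for Fcgr2b and 0.273 for Fcer1g, and 811 genes instead of 733 passed the unadjusted threshold. The unadjusted p was then under 0.05 for all 5 genes instead of 2, at 0.00671 for Fcgr1, 0.00517 for Fcgr4, 0.0162 for Fcgr3, 0.00121 for Fcgr2b and 0.0268 for Fcer1g.

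Rescaling by macrophage markers gave C5ar1 a log2 difference of -5.36, past the adjusted threshold, 27 genes past the adjusted and 373 past the unadjusted threshold, and 3 pathway genes instead of 7. It lowered the medians of all lists by a similar amount, as it did that of all genes. They became -0.11 for inhibitory signaling, -0.34 for activating signaling, -0.35 for the actin machinery and -0.37 for the cytokine pathways. Those of the other lists became -0.43 for other Fc receptors, -0.56 for the NADPH oxidase and -0.08 for the DAP12 axis. The remaining medians were 0.18 for other ITIM receptors and 0.12 for FcR gamma chain partners. Without the trend 2 genes passed the adjusted threshold, and with a TPM of at least 5, which tests fewer genes, 475 passed the unadjusted one and the median of FcR gamma chain partners became -0.24. Leaving out single libraries gave 0 to 356 genes past the adjusted threshold and 567 to 1266 past the unadjusted one, both highest without C5aR-/- TAM 1, 6 to 11 pathway genes, a C5ar1 difference from -5.63 to -4.45 and an actin median as low as -0.26. List medians that changed sign ran from -0.67 (without C5aR-/- TAM 1) to 0.55 (without C5aR-/- TAM 3) for other Fc receptors, and between the same 2 settings from -0.16 to 0.65 for the DAP12 axis, from -0.48 to 0.08 for the NADPH oxidase, from -0.24 to 0.23 for activating signaling and from -0.20 to 0.06 for the cytokine pathways. The median of inhibitory signaling was -0.04 without C5aR-/- TAM 1. Depth is unknown for TPM, and the cause of these moves was not tested.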

Other observations

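The cytokine pathway genes named here were chosen after their values were seen. Irf1, an interferon-induced factor, had TPM values of 106, 126 and 212 in WT and of 132, 81.3 and 119 in C5aR-/- TAMs, a log2 difference of -0.38. Its groups overlapped, and it passed neither threshold. Spi1, which encodes PU.1, was at 66.0, 41.2 and 32.7 in WT and at 83.2, 48.0 and 33.0 in C5aR-/- TAMs, from high to low in the same library order as Csf1r and Fcgr3 within each group. Il4ra, the IL-4 receptor chain, was at 79.2, 69.4 and 90.5 in WT and at 115, 85.6 and 75.8 in C5aR-/- TAMs, with a log2 difference of 0.19.

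Inppl1, which encodes the SHIP-1 relative SHIP-2, was the gene of the inhibitory signaling list with the smallest p and was likewise chosen after its values were seen. Its TPM was 102, 106 and 137 in WT and 150, 165 and 161 in C5aR-/- TAMs, so the groups were apart, with a log2 difference of 0.47 (SE 0.15) and an adjusted p of 0.244 from limma. Inpp5d, by contrast, overlapped between the groups.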
